A study of Mus musculus with 20 samples.

Results

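The genes described here make peptides for major histocompatibility complex (MHC) class I molecules and carry them to the cell surface. They are 10 of the 46939 genes in the expression tables: the immunoproteasome subunits Psmb8, Psmb9 and Psmb10, the peptide transport and loading genes Tap1, Tap2 and Tapbp, the class I chains B2m, H2-K1 and H2-D1, and the transactivator Nlrc5. They were found by their symbols, and CTCF peaks were taken within 20 kb of each locus. The genes were chosen by function but with their FPKM and fold change between the genotypes in view, so their own differences between genotypes are given as a description, with no p-values beyond the q-values that the authors deposited.

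The cells were mouse embryonic stem cells of strain 129 in 2 genotypes, wild-type (WT) and knocked out for Tdg (TDG KO). Tdg encodes thymine DNA glycosylase, which removes the formylcytosine and carboxylcytosine that TET enzymes make from methylcytosine. The series asked how CTCF binding differs when this removal is lost. Polyadenylated RNA was sequenced from 2 libraries per genotype, and CTCF, the DNA-binding protein that anchors chromatin loops and insulates genes, was immunoprecipitated and sequenced (ChIP-seq) in the same number. The series' libraries for RNA polymerase II, IgG and input were not analysed here. Cells of both genotypes grew with serum and LIF on growth-arrested mouse embryonic fibroblasts, which were depleted by repeated plating. The labels name neither separate cultures nor more than 1 line per genotype, so the spread between libraries may be technical and the genotypes cannot be told apart from the lines that carry them.

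Proteasomes cut cytosolic proteins into peptides with a catalytic trio of beta subunits. Under interferon, Psmb8, Psmb9 and Psmb10 replace that trio to form the immunoproteasome, the Tap1-Tap2 pump carries the peptides into the endoplasmic reticulum, and tapasin (Tapbp) holds the pump beside a class I heavy chain bound to beta-2-microglobulin (B2m). Embryonic stem cells are known for low surface class I, and Nlrc5 is the factor that drives class I promoters in lymphoid and interferon-treated cells.

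RNA levels are FPKM, fragments per kilobase of transcript scaled by library size, so levels can be set side by side between genes. Tdg itself was at 28.1 and 30.4 FPKM in WT and at 5.50 and 4.74 in TDG KO, a log2 change of -2.31 ± 0.087 (SE; limma adjusted p = 9.21e-06), in the direction of the labels. Differences are on log2(FPKM + 1), TDG KO minus WT, with their standard error (SE), and a gene is called higher or lower when its limma p, adjusted over the 12035 genes with a mean of at least 1 FPKM, is under 0.05. Absolute depth is unknown from these tables; relative to WT replicate 1 it was 0.859 in the other WT library, and 0.993 and 0.930 in the first and the second TDG KO library. Of the 10 embryonic stem cell markers, all tested, 2 were higher and 5 lower in TDG KO, and Pou5f1 had means of 1540.3 and 1045 FPKM in WT and TDG KO. Of 24 fibroblast markers 22 were tested, with 2 higher and 12 lower and a median log2 change of -0.56. Their summed FPKM was 517 to 724 in WT and 610 to 686 in TDG KO, with none at 0 in all libraries. Much of this sum was Vim, 1 of the 2 higher markers, at 248 and 204 FPKM in WT and 318 and 354 in TDG KO. The sum therefore does not follow the 12 lower markers. All 10 leukocyte markers together summed to 100.8 and 99.8 FPKM in WT and 41.1 and 38.1 in TDG KO, mostly Laptm5, while the pan-leukocyte gene Ptprc stayed between 0.135 and 0.296. The 5 extraembryonic markers did not exceed 0.686 FPKM. In such bulk RNA, fewer cells of a type and less RNA per cell cannot be told apart.

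Among the immunoproteasome subunits, Psmb8 and Psmb10 stood higher in TDG KO and Psmb9 differed little. Psmb8 (LMP7), which takes the place of the chymotrypsin-like subunit Psmb5, was at 0.850 and 0.832 FPKM in the WT libraries and at 6.001 and 7.81 in the TDG KO libraries. It was a near-silent gene in both WT libraries and a low transcript in both TDG KO libraries, with no overlap. The means were 0.841 ± 0.0126 and 6.90 ± 1.28 (SD, n = 2), an 8.21-fold ratio and a log2 change of 2.09 ± 0.13. Among all tested genes 79, Psmb8 included, changed upward by at least that much. Its WT mean was below 1 FPKM, so it passed the filter on low values through its TDG KO libraries.

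Psmb10 (MECL-1), which takes the place of the trypsin-like subunit Psmb7, was the most abundant of the trio, at 16.3 and 18.1 FPKM in WT and 30.4 and 34.98 in TDG KO. Both TDG KO libraries lay above both WT libraries, with a 1.90-fold ratio and a log2 change of 0.89 ± 0.088. Psmb9 (LMP2), which takes the place of the caspase-like subunit Psmb6, was at 2.04 and 2.61 FPKM in WT and 3.06 and 2.70 in TDG KO. The lowest TDG KO library was barely above the highest WT library, and the log2 change of 0.23 ± 0.12 was not called. The subunits therefore changed their order: Psmb8 lay under Psmb9 in both WT libraries and above it in both TDG KO libraries.

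**Figure D1:**
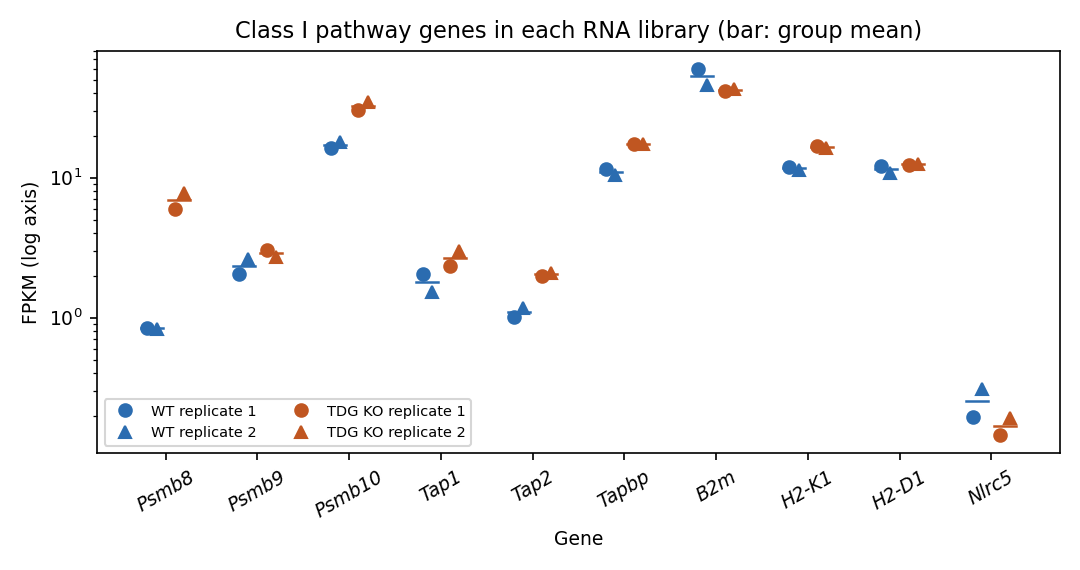
Level of the 10 genes in each RNA library, in FPKM on a log axis, with WT in blue, TDG KO in orange, circles for replicate 1, triangles for replicate 2 and a bar at each group mean. Psmb8 rises from 0.841 to 6.90 FPKM, the widest gap of the 10, while B2m and Nlrc5 have their TDG KO mean below their WT mean.

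The constitutive counterparts were far more abundant than the subunits that replace them, so the share of each immunoproteasome subunit was taken within each library. Psmb8 reached 0.366 and 0.375% of the Psmb5 FPKM in WT and 2.77 and 3.16% in TDG KO. Psmb10 reached 5.79 and 5.93% of Psmb7 in WT and 11.2 and 11.7% in TDG KO. Both ratios separated the genotypes by more than the spread of the libraries, 8.01-fold for Psmb8 (4.19-fold with 1 FPKM added to each value) and 1.96-fold for Psmb10, while even the highest, Psmb10 in TDG KO, remained a small minority of its counterpart. Psmb9 reached 0.425 and 0.568% of Psmb6 in WT and 0.466 and 0.364% in TDG KO, so here the genotypes overlapped. With 2 libraries against 2, an exact permutation test of a single ratio cannot go below p = 0.33, and none was run.

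The counterparts were also compared between genotypes on their own. Psmb5 had means of 227 and 232 FPKM (log2 change 0.03 ± 0.081, limma adjusted p = 0.793) and Psmb7 of 294 and 284 FPKM (-0.05 ± 0.078, limma adjusted p = 0.638), neither past the threshold. Psmb6 was higher in TDG KO, at 470 and 700.2 FPKM (0.57 ± 0.083, limma adjusted p = 0.00163). Psmb6 lies on chromosome 11, where 674 of 1028 tested genes (65.6%) were called higher in TDG KO, with a median log2 change of 0.37. None of the 10 genes lies on that chromosome.

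**Figure D2:**
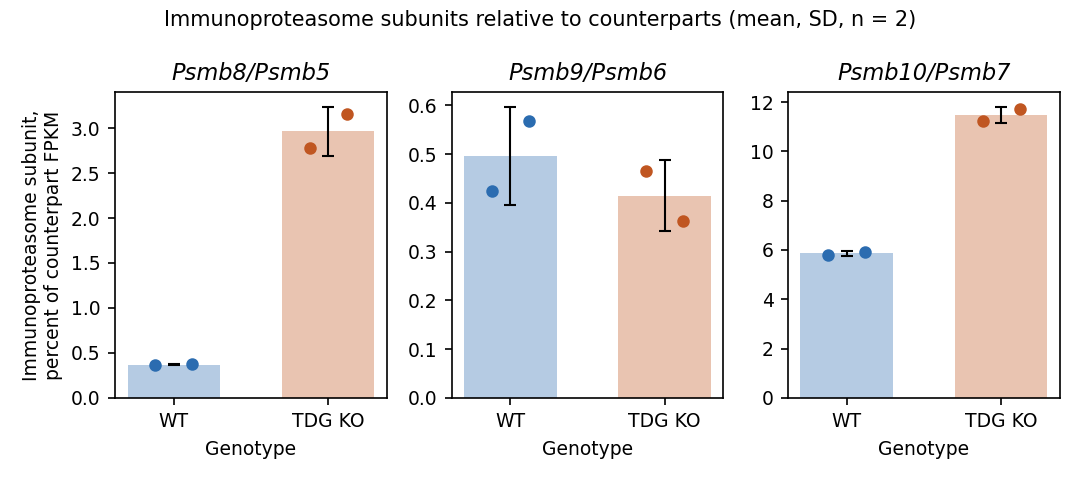
FPKM of each immunoproteasome subunit as a percent of its constitutive counterpart, by genotype; bars are means of 2 libraries, whiskers SD and points libraries, and each panel has its own axis from 0. Psmb8/Psmb5 goes from 0.371 to 2.97% and Psmb10/Psmb7 from 5.86 to 11.5%, while the Psmb9/Psmb6 libraries of the genotypes overlap.

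Promoter sequences, where RefSeq lists one (GRCm38.p6, the C57BL/6J reference; 8 of the 10 genes, without Tap2 and Nlrc5), were read as the 250 bases before the start, since sequence played no part in the choice of the genes. The motifs searched on both strands were the interferon-stimulated response element ISRE (GAAA repeated after any 2 bases), the interferon-gamma activated site GAS (TTCNNNGAA), the NF-kB site (GGGNNTTCC), the CCAAT box (CCAAT), the core of the CREB-bound CRE (TGACG) and the GC box (GGGCGG), with N for any base. Over 32536 distinct promoters of that length, 2.98% held the ISRE, 7.04% the GAS, 5.00% the NF-kB site, 33.8% the CCAAT box, 17.9% the CRE core and 33.0% the GC box. No match overlapped another in these genes, and a match is a run of letters, not a shown binding site. The Psmb8 promoter is printed because this gene has the largest difference, and the run between the starts of Psmb9 and Tap1 because these neighbours are transcribed away from each other from the same short stretch. Psmb8 lies at chr17:34197945-34198194 on the plus strand, and the Psmb9-Tap1 run at chr17:34187331-34187555 on the plus strand, which is the Tap1 strand; capitals mark motif matches.
Psmb8: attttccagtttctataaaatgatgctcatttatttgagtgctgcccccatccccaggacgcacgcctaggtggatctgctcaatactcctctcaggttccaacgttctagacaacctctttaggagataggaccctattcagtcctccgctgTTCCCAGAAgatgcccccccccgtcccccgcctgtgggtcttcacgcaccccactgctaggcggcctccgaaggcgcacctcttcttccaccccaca
Psmb9-Tap1: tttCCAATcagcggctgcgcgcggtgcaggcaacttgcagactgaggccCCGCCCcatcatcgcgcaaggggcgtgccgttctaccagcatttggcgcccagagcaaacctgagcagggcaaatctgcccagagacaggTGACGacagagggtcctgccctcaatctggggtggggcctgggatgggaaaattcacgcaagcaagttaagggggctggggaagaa

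The only match in the Psmb8 promoter was a GAS, 97 bases before the start. The 225 bases between the starts of Psmb9 and Tap1 held, in the Tap1 direction, a CCAAT box 222 bases, an inverted GC box 176 bases and a CRE core 86 bases before the Tap1 start. These matches lie in the upstream stretch of both genes, whose RNA had log2 changes of 0.23 (Psmb9) and 0.39 (Tap1). The Psmb10 promoter held none of the 6 motifs. Psmb10 also had the fewest CpG dinucleotides in its window, 3, against 10 in Psmb8, 12 in Psmb9 and a median of 6 over all promoters.

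The peptide transport and loading genes were each higher in TDG KO by less than Psmb8. Tapbp (tapasin) was at 11.5 and 10.4 FPKM in WT and 17.5 and 17.4 in TDG KO. The TDG KO libraries almost coincided and lay above both WT libraries, a 1.59-fold ratio with a log2 change of 0.63 ± 0.074. Tap2, one chain of the pump, was at 1.02 and 1.18 FPKM in WT and 1.98 and 2.103 in TDG KO. It had no overlap and a 1.86-fold ratio, with a log2 change of 0.54 ± 0.10.

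Tap1, the other chain of the pump, was at 2.07 and 1.52 FPKM in WT and 2.34 and 2.99 in TDG KO. Its libraries did not overlap, but the WT libraries differed from each other by more than WT replicate 1 differed from TDG KO replicate 1. The log2 change of 0.39 ± 0.14 was called with all 4 libraries. It was not called without WT replicate 2 (0.25), TDG KO replicate 1 (0.52) or TDG KO replicate 2 (0.27), nor without the filter on low values. Tap1 and Tap2 had means of 1.79 and 1.10 FPKM in WT and 2.67 and 2.04 in TDG KO, so the pump chains stayed within a similar low range in either genotype. The deposited table gives Psmb9 and Tap1 the same locus coordinates, and likewise Psmb8 and Tap2. No source used here says how strand entered the counting, and reads where such neighbours overlap are uncertain.

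The class I chains did not move together. H2-K1, a classical heavy chain, was at 11.98 and 11.3 FPKM in WT and 16.9 and 16.3 in TDG KO. Both TDG KO libraries were above both WT libraries, a 1.42-fold ratio with a log2 change of 0.47 ± 0.068. H2-D1, another classical heavy chain, was at 12.1 and 10.8 FPKM in WT and 12.4 and 12.6 in TDG KO. The highest WT library came close to both TDG KO libraries, and the log2 change of 0.12 ± 0.079 was not called. Class I heavy chains are close copies of each other, so reads can be shared among H2-K1, H2-D1 and the H2-Q and H2-T genes, and their split is uncertain.

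B2m, the light chain common to all class I molecules, was the most abundant of the 10, at 59.7 and 46.0 FPKM in WT and 41.9 and 43.3 in TDG KO. It was the only tested gene of the 10 whose TDG KO libraries lay below both WT libraries. WT replicate 1 stood well above the other 3 libraries, and the log2 change of -0.29 ± 0.12 was not called. The change was -0.48 and called lower without WT replicate 2, and -0.11 and not called without WT replicate 1. WT replicate 1 was also the library in which each of the 24 fibroblast markers exceeded its level in WT replicate 2; their part in the B2m value was not tested.

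The sequences of the chain genes are shown because B2m, H2-K1 and H2-D1 share a motif pair that the other 5 promoters lack: a CRE core followed by exactly 20 bases and an inverted CCAAT box. The spacing was read from these genes and then searched for, and 30 of the 32536 promoters (0.0922%) held it. The 30-base runs lie at chr2:122147609-122147638 on the plus strand for B2m, chr17:34000359-34000388 on the minus strand for H2-K1 and chr17:35262993-35263022 on the plus strand for H2-D1. Capitals mark the CRE core and the inverted CCAAT box.
B2m: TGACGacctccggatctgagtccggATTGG
H2-K1: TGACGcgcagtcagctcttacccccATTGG
H2-D1: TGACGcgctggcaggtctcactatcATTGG

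RefSeq models of H2-K1 differ in their start, and this window lies inside the longest, whose start is at position 34000619. Upstream of the pair, H2-K1 and H2-D1 had a match to the NF-kB pattern 70 bases before the CRE core and none to the ISRE pattern. B2m had a match to the ISRE pattern and none to the NF-kB pattern. The runs from the NF-kB site to the CCAAT box matched in 89 of 100 bases between H2-K1 and H2-D1, at chr17:34000359-34000458 on the minus strand and chr17:35262923-35263022 on the plus strand. The H2-D1 run and the whole B2m promoter, chr2:122147437-122147686 on the plus strand, are printed below. Capitals mark motif matches, which differ upstream of the shared pair. Runs that depart from a pattern by a base or in length were not counted, so whether the elements themselves differ was not tested.
H2-D1: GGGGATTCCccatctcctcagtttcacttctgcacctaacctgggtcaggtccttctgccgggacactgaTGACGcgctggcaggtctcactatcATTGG
B2m: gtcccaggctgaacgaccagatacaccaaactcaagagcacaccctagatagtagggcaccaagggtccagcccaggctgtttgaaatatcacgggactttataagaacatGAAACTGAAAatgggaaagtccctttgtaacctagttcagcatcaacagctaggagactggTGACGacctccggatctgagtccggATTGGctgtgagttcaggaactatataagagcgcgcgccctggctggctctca

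The ISRE of B2m began 139 bases before its start, the CRE core 78 and the inverted CCAAT box 53. Of the 3 genes with the pair, H2-K1 was called higher and H2-D1 and B2m were not called.

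Nlrc5 was the lowest of the 10, at 0.194 and 0.311 FPKM in WT and 0.146 and 0.191 in TDG KO. It was under the filter in both genotypes and was not tested. Its TDG KO libraries lay under both WT libraries by a narrow margin.

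By level, WT cells ran from B2m (52.9 ± 9.67 FPKM; mean ± SD, n = 2) and Psmb10 (17.2 ± 1.23) through H2-K1 (11.7 ± 0.463), H2-D1 (11.4 ± 0.982) and Tapbp (10.96 ± 0.793) to Psmb9 (2.32 ± 0.402), Tap1 (1.79 ± 0.386), Tap2 (1.10 ± 0.118), Psmb8 (0.841 ± 0.0126) and Nlrc5 (0.253 ± 0.0824). H2-K1, H2-D1 and Tapbp were within their spread of each other, and the libraries of Psmb9 and Tap1 overlapped. In TDG KO the order was B2m (42.6 ± 1.02), Psmb10 (32.7 ± 3.24), Tapbp (17.4 ± 0.0692), H2-K1 (16.6 ± 0.413), H2-D1 (12.5 ± 0.159), Psmb8 (6.90 ± 1.28), Psmb9 (2.88 ± 0.255), Tap1 (2.67 ± 0.461), Tap2 (2.04 ± 0.0879) and Nlrc5 (0.169 ± 0.0317). Psmb8 moved up 3 places, and Psmb9 and Tap1 again overlapped.

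Of the 10 genes 9 were tested, 6 were called higher, none lower and 3 (Psmb9, H2-D1 and B2m) were not called. Over all 12035 tested genes 24.4% were called higher and 29.5% lower (54% in either direction). The median log2 change was 0.47 over the 9 and -0.04 over all tested genes. The libraries did not overlap in any of the 9, with TDG KO above WT in 8 and below in B2m; over all tested genes 35.1% did not overlap with TDG KO above and 43.6% with TDG KO below. Since the genes were chosen with this contrast known, these counts support nothing further. In the authors' deposited table, 4 of the 10 were significant at the authors' threshold, Psmb8 (q = 0.000468), Psmb10 (q = 0.00255), H2-K1 (q = 0.00856) and Tap2 (q = 0.0404), all with a higher TDG KO mean. There 27.4% of the 16262 genes tested by the authors were significant, 15.3% as higher in TDG KO. Tapbp (q = 0.0594) and Tap1 (q = 0.0684) were not significant in the authors' deposited table.

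Of the other proteasome genes, those on chromosome 11 rose and most others did not pass the test. Outside the 10 genes 43 proteasome genes were tested: 12 were higher, 1 lower, and the median log2 change was 0.05. All 8 on chromosome 11 were higher (median 0.51). Of the 35 elsewhere 4 were higher and 1 lower (median 0.02). The core particle subunits outside the catalytic trio gave 1 higher and 1 lower of 12, Psmb3 (0.41 ± 0.086) on chromosome 11 and Psma3 (-0.24 ± 0.075); Psmb3 lost its call without WT replicate 1 or WT replicate 2, and Psma3 without TDG KO replicate 1 or either WT library. The regulatory particle, which recognises and unfolds ubiquitinated proteins, gave 5 higher of 18, led by Psmd3 (0.88 ± 0.073), Psmd12 (0.60 ± 0.068) and the ATPase Psmc5 (0.57 ± 0.069), all on chromosome 11.

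The interferon-linked activator subunits Psme1 and Psme2, which cap immunoproteasomes, were at 68.7 and 76.2 FPKM in WT and 72.5 and 88.7 in TDG KO, and neither was called. Among the 10 activators and assembly factors 5 were higher and none lower (median 0.22). Psmg3 (0.66 ± 0.079) and Psmg2 (0.57 ± 0.075), chaperones of core particle assembly, led them, followed by the nuclear activators Psme3 (0.45 ± 0.057) and Psme4 (0.37 ± 0.079) on chromosome 11. The count was 3 without WT replicate 1 and again without TDG KO replicate 1, and in both cases Psme4 was not called (0.29 and 0.30). The dedicated maturation factor Pomp was not called (0.02 ± 0.086, limma adjusted p = 0.850).

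The peptide loading and trimming genes outside the 10 split. Of 11 tested, 4 were higher and 5 lower, with a median of -0.03. Tapbpl (TAPBPR), a tapasin relative that edits peptides on class I, was at 0.902 and 0.967 FPKM in WT and 2.12 and 2.09 in TDG KO (0.68 ± 0.099, limma adjusted p = 0.00163). Erap1, the peptidase that trims peptides in the endoplasmic reticulum, was at 0.737 and 0.673 FPKM in WT and 1.85 and 1.53 in TDG KO (0.66 ± 0.11, limma adjusted p = 0.00327). Both are specific to the class I route, both rose, and both passed the filter through their TDG KO libraries. The general chaperones Calr (-0.47 ± 0.063, limma adjusted p = 0.00120) and Pdia3 (-0.45 ± 0.059, limma adjusted p = 0.00104), far more abundant at means of 423 and 212 FPKM in WT, fell to 305 and 155. The remaining higher genes were Canx (0.24 ± 0.078, limma adjusted p = 0.0379), also a general chaperone, and Blmh (0.26 ± 0.061, limma adjusted p = 0.0108), both on chromosome 11. General chaperones thus moved in both directions. The count of lower genes was 3 without WT replicate 1, without WT replicate 2 or without TDG KO replicate 2, and the count of higher genes was 2 without WT replicate 1.

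**Figure D3:**
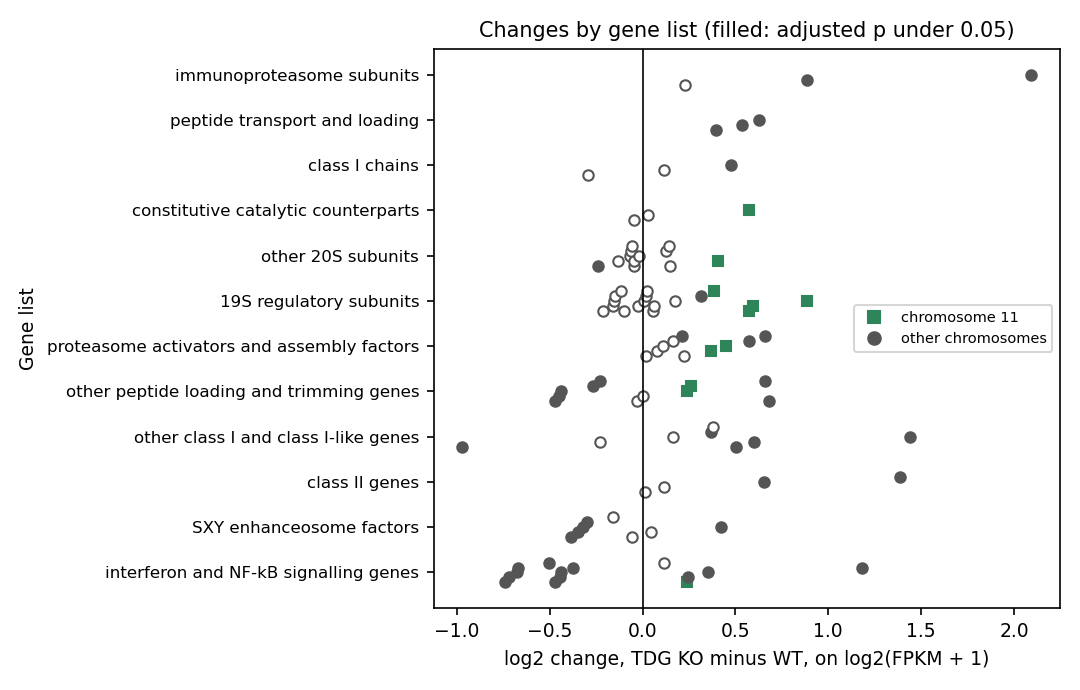
Log2 change (TDG KO minus WT, on log2(FPKM + 1)) of each tested gene by gene list; filled symbols have an adjusted p under 0.05 and squares mark chromosome 11 (20S is the core and 19S the regulatory particle, and SXY factors assemble on class I promoters). The higher proteasome genes are mostly squares (8 of 12), and interferon and NF-kB signalling genes lie mostly to the left, 9 lower of 14.

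Beyond H2-K1 and H2-D1, 20 class I and class I-like genes were in the table and 8 were tested, with 4 higher, 1 lower and a median of 0.38. H2-Bl had the largest log2 change of the tested genes, from 0.755 and 1.05 FPKM in WT to 4.50 and 3.84 in TDG KO (1.44 ± 0.12, limma adjusted p = 0.000196). H2-Q10 (0.60 ± 0.11, limma adjusted p = 0.00446) and H2-T22 (0.50 ± 0.11, limma adjusted p = 0.00873) rose as well. H2-M5 went the other way, from 31.9 and 32.6 FPKM to 15.6 and 16.3 (-0.97 ± 0.062, limma adjusted p = 6.87e-05). In WT cells this nonclassical gene was listed above H2-K1 and H2-D1, and in TDG KO it was close to H2-K1. H2-Bl and H2-Q10 had WT means under 1 FPKM and passed the filter through their TDG KO libraries, and both are close copies of other heavy chains, so their levels are uncertain. H2-Q7, at 0.202 and 0.152 FPKM in WT and 1.47 and 1.67 in TDG KO, was under the filter and not tested; it was singled out after its values were seen. Without TDG KO replicate 2 the count of higher genes was 2, and H2-T22 was not called (0.45).

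Of 11 MHC class II genes 4 were tested, 2 of them higher and none lower (median 0.39). H2-Eb1, a class II beta chain, was at 0.665 and 0.379 FPKM in WT and 2.87 and 3.05 in TDG KO (1.39 ± 0.12, limma adjusted p = 0.000249). Cd74, the invariant chain, was at 1.45 and 1.53 FPKM in WT and 3.17 and 2.69 in TDG KO (0.66 ± 0.10, limma adjusted p = 0.00232). Ciita, the class II counterpart of Nlrc5, did not exceed 0.0241 FPKM in any library. H2-Eb1 passed the filter through its TDG KO libraries.

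The factors that assemble on class I promoters, and the signalling genes upstream, gave more falls than rises. All tested genes leaned the same way by a smaller margin, with 29.5% lower, 24.4% higher and a median log2 change of -0.04. Of 8 promoter-complex factors 1 was higher, Rfxap (0.42 ± 0.11, limma adjusted p = 0.0167), and 4 lower (median -0.23), among them Creb1 (-0.39 ± 0.087, limma adjusted p = 0.00944), Rfx5 (-0.35 ± 0.10, limma adjusted p = 0.0259) and Nfyb (-0.32 ± 0.074, limma adjusted p = 0.0111). Rfx5 and Rfxap belong to 1 complex, which binds the X box of class I and class II promoters, and here their estimates had opposite signs. The calls depended on single libraries: none was higher without WT replicate 1, TDG KO replicate 1 or TDG KO replicate 2, and the count of lower genes was 2 without WT replicate 1 and 1 without WT replicate 2 or TDG KO replicate 2.

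Of 17 interferon and NF-kB signalling genes 14 were tested, with 4 higher and 9 lower and a median of -0.44. Socs1, an interferon-induced inhibitor of JAK kinases, was at 0.573 and 0.477 FPKM in WT and 2.12 and 2.82 in TDG KO (1.18 ± 0.13, limma adjusted p = 0.000549), and passed the filter through the latter. Irf9, the DNA-binding part of the type I interferon complex, fell from 6.87 and 6.24 FPKM to 3.59 and 3.45 (-0.74 ± 0.085, limma adjusted p = 0.000634). Nfkb1 (-0.72 ± 0.064, limma adjusted p = 0.000249) and the receptor kinase Jak1 (-0.68 ± 0.069, limma adjusted p = 0.000393) fell as well. Leaving out a library left 7 or 8 lower genes, and 2 higher genes when it was TDG KO replicate 2 and 1 when it was any of the other libraries.

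Irf1, an interferon-induced factor known for driving Psmb9 and Tap1, was at 12.2 and 11.8 FPKM in WT and 14.2 and 14.4 in TDG KO (0.24 ± 0.066, limma adjusted p = 0.0196), on chromosome 11, and its call was lost with each library left out in turn (0.26, 0.22, 0.25 and 0.23). Ifnb1, which encodes interferon beta, was listed at 0 in all 4 libraries, and Ifng did not exceed 0.0149 FPKM. Over the pathway lists outside the 10 genes (cell type markers not counted), 88 of 111 genes were tested, 27 higher and 20 lower. Without chromosome 11 the counts were 16 and 20, without WT replicate 1 17 were higher, and without WT replicate 2 13 were lower.

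The tested genes around the 10 changed in both directions. In the 20 kb windows lay 37 other genes, of which 18 were tested. Of these, 3 were higher and 4 lower, against 24.4% and 29.5% of all tested genes. The median log2 change of the 18 was -0.05. Among the called ones the largest change was that of 4933406J08Rik near B2m, from a mean of 0.585 to 3.38 FPKM (1.47 ± 0.12, limma adjusted p = 0.000196), a gene that passed the filter on low values through its TDG KO libraries. BC051226 near Tapbp went from 6.62 to 14.6 FPKM (1.03 ± 0.15, limma adjusted p = 0.00146), and Pfdn6, a prefoldin subunit, also near Tapbp, rose (0.44 ± 0.076, limma adjusted p = 0.00338). Ddx39b, an RNA helicase gene near H2-D1, fell (-0.61 ± 0.071, limma adjusted p = 0.000689). On chromosome 17 as a whole, which holds 7 of the 10, 18.7% of 615 tested genes were higher and 33.5% lower.

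The genes whose 4 library values followed Psmb8 most closely, by Euclidean distance of centred log2(FPKM + 1), lay on other chromosomes. Chromosome 17 holds only 615 of the 12035 tested genes. With 2 libraries per genotype, the distance depends largely on the difference between genotypes, so these are genes of similar change. They were the histone gene Hist1h3c (distance 0.109), the muscle actin Acta1 (0.151), the metallothionein Mt1 (0.167), Fthl17d (0.195) and the Nodal antagonist Lefty1 (0.197). Mt1 was at 138 and 135 FPKM in WT and 600.0 and 678 in TDG KO. Hist1h3c, Acta1 and Fthl17d were under 1 FPKM in both WT libraries and passed the filter on low values through their TDG KO libraries. The likeness holds on log2(FPKM + 1): with 0.1 in place of 1, the log2 change was 2.88 for Psmb8, 2.23 for Mt1 and 4.54 for Fthl17d.

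CTCF peaks were deposited as 1 list per library, of 38303 and 37099 peaks in WT and 48514 and 48833 in TDG KO. Within 20 kb of the deposited loci of the 10 genes the lists held 35 and 29 peaks in WT and 39 and 41 in TDG KO. The TDG KO lists were thus longer here as they were in full. Some of these loci span neighbouring genes, so a peak in a window can lie more than 20 kb from the gene itself. Peaks that overlapped by at least 1 bp were merged into 42 regions of 54729 in all. Of these 29 (69.0%) had a peak in all 4 lists, against 59.8% of all regions and 61.2% of those near tested genes. Another 4 (9.52%) had a peak in each TDG KO list but in no WT list (TDG KO-only), against 10.8% of all regions and 9.37% of those near tested genes. Without the list of WT replicate 1 the count of TDG KO-only regions was 8, and with all lists cut to the 37099 strongest peaks it was 0. None had a peak in both WT lists only, against 0.17% of all, and 9 had another combination. The share of TDG KO-only regions near these genes was thus close to that near any tested gene. Windows around the RefSeq gene ends, an alternative chosen after seeing the data, held 35 regions. Of these 26 were in all 4 lists and 4 were TDG KO-only.

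**Figure D4:**
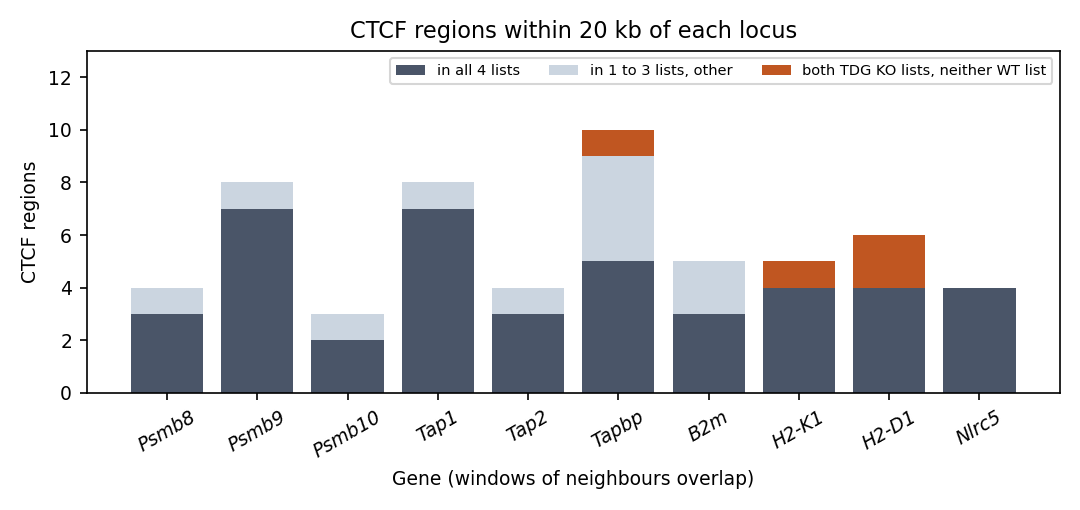
Number of merged CTCF regions within 20 kb of the locus of each gene, stacked by the lists that hold a peak: all 4 lists, the TDG KO lists alone, or another combination of lists. Windows hold 3 to 10 regions, and orange appears only at Tapbp, H2-K1 and H2-D1; neighbouring genes share windows and are not independent.

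A window held 3 to 10 regions, with a median of 5, against 4 over the windows of all tested genes. Psmb10 had the fewest and Tapbp the most. TDG KO-only regions stood in the windows of 3 of the 10 genes, Tapbp, H2-K1 and H2-D1; 30.1% of the windows of tested genes held at least 1. Those of Psmb8, Psmb9, Tap1, Tap2, Psmb10, B2m and Nlrc5 held none. A region shared by the windows of Psmb8 and Tap2 was missing only from the list of WT replicate 2. The same held for a region shared by the windows of Psmb9 and Tap1 and for a region 4295 bp from Tapbp. It also held for a region in the window of Psmb10, over Dpep3 and 37002 bp from Psmb10 itself. Each of these counts as TDG KO-only when the list of WT replicate 1 is left out.

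The 4 TDG KO-only regions were mostly weak peaks, by the percentile of the authors' score in its own list, 100 being the strongest. The one nearest to a gene of the group lay at chr17:33929482-33929788, 192 bp beyond the end of Tapbp and over the start of Rgl2, a guanine exchange factor gene, at percentiles 15.6 and 4.201 in the TDG KO lists. The region near H2-K1 lay at chr17:33993562-33993895, 2117 bp from the gene, at percentiles 30.6 and 18.0. The regions near H2-D1 lay at chr17:35273715-35274156, 6218 bp from the gene, at 4.78 and 30.7, and at chr17:35274256-35274451, 6759 bp away, at 9.91 and 6.97. No region overlapped the 250 bases before the start of any of the 8 genes with a promoter sequence. Tap2 and Nlrc5 had no such sequence and were not covered by this check.

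The strong regions were those in all 4 lists. Around the Psmb9-Tap1-Psmb8-Tap2 cluster the windows held 9 regions, 7 of them in all 4 lists and 2 missing only from WT replicate 2. None lay over Psmb9, Tap1 or Psmb8. One region, chr17:34204317-34204644, ranked highest of the 9 in every list but that of WT replicate 2, and only narrowly in TDG KO replicate 2. This region covered the end of Tap2 that faces Psmb8, 6.29 kb from the Psmb8 start. Its percentiles were 93.5 and 83.8 in the WT lists and 97.0 and 93.2 in the TDG KO lists. It spanned position 34204479, the RefSeq bound of Tap2 on that side. Tap2 had no promoter sequence, so whether this region lies at its start was not part of the promoter check. A second region, chr17:34170514-34171232, 10798 bp from Psmb9 on the other side of the cluster, stood at 74.1 and 88.4 in the WT lists and 91.8 and 93.1 in the TDG KO lists. Beyond the far end of Tap2 the only region in the windows was a weak one, at percentiles 22.8, 11.2 and 6.37 and missing from WT replicate 2.

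**Figure D5:**
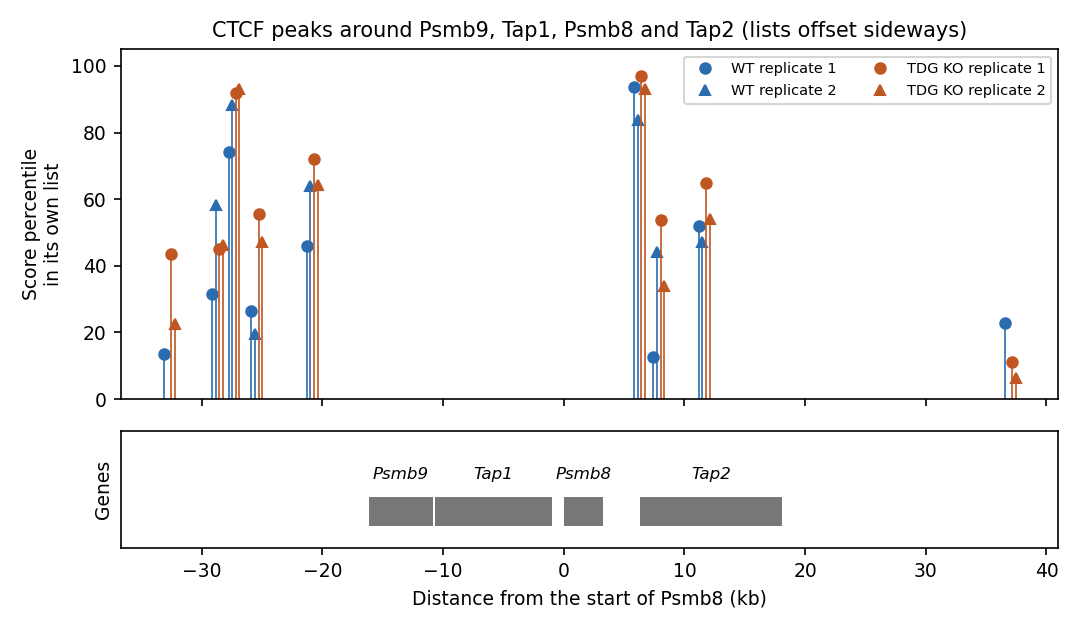
CTCF peaks around the cluster, by distance in kb from the start of Psmb8 (lists offset sideways for legibility) and score percentile in their own list; blue is WT, orange TDG KO, and grey boxes are the genes. The region at 6.29 kb, at the edge of Tap2, stands at percentile 83.8 or above in all 4 lists, and no peak lies over Psmb9, Tap1 or Psmb8.

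H2-K1 and H2-D1 each had a region of similar rank in all lists. Beside H2-K1, chr17:34003421-34003824, 2802 bp from the gene, was at percentiles 96.7 and 98.5 in the WT lists and 99.0 and 92.6 in the TDG KO lists, and beside H2-D1, chr17:35274770-35275320, 7273 bp away, was at 98.7 and 84.1 in the WT lists and 98.7 and 93.2 in the TDG KO lists. The 4 regions inside Tapbp with a peak in every list, and the 2 inside Nlrc5, show that CTCF peaks within the gene stood beside RNA that was higher in TDG KO for the former and low in both genotypes for the latter. Near Psmb10, chr8:105930617-105931155, 4573 bp from the gene, ranked at 99.0 and 87.8 in the WT lists and 79.7 and 81.2 in the TDG KO lists. Ranks from lists of unequal length do not measure a change in binding.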

How the data were processed

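RNA and CTCF libraries of WT and TDG KO cells, 2 per genotype and assay, were used. The authors deposited FPKM per gene and library, a comparison table with log2 folds, p-values and q-values, and 1 CTCF peak list per library with a score per peak. The deposited log2 fold was WT over TDG KO. Per the submitters' processing notes, TopHat2 2.1.1, Cufflinks 2.2.1, Cuffdiff, Bowtie2 2.2.9, MACS2 2.2.1, deepTools and mm10 were used, without roles. No source used here says what the deposited score measures or how peaks were cut off.

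Genes with a mean of at least 1 FPKM were tested on log2(FPKM + 1) with limma 3.58.1 (R 4.3.3, trend option, 2-sided, Benjamini-Hochberg over 12035 genes, threshold 0.05). This scale understates changes of low genes. Samples were grouped by their titles. The script was tested on simulated data. Ratios, CTCF regions and motifs were counted in Python 3.11.15. Named genes were the members, Psmb5 to Psmb7, Tdg, Irf1, 1 further regulator that is not reported here, up to 4 called genes per list and among window neighbours by absolute log2 change, and the 5 nearest to Psmb8; Psme1, Psme2, Pomp, Ciita, Ifnb1, Ifng and Ptprc were added after their values were seen. Members and lists were chosen with earlier results of these data known. The alternatives tried changed the pseudocount, filter, scaling, replicate block, libraries, window, overlap and peak number.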

Additional observations from a re-analysis of the deposited data

How the results depend on the processing

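Directions of the 9 tested genes held under each alternative that tested them. Calls changed for Tap1, weaker in 4 alternatives, and B2m, called lower in 3. With a mean of at least 5 FPKM, 5 of the genes were tested, 3 called higher, since fewer genes enter, and 1 (B2m) lower, at an unchanged log2 change. With the replicate block, 6 were higher and 1 (B2m) lower, with 3030 genes higher and 3666 lower in all. Same-numbered libraries did not deviate together (r = -0.0157 over 12035 genes), so the numbers were not taken as pairs. Leaving out 1 library gave 5 to 6 of the genes higher and 0 to 1 lower. For the other pathway lists it gave 17 to 22 higher and 13 to 18 lower, and 16 were higher without chromosome 11, an alternative chosen after seeing the data, as were windows around RefSeq gene ends. No filter gave 3345 genes higher and 2886 lower, and upper-quartile scaling 3191 and 3178. Neither Psmb5 nor Psmb7 was called, and with a library left out their log2 changes spanned 0: Psmb5 ran from -0.068 (without TDG KO replicate 2) to 0.123, and was -0.005 without WT replicate 2, while Psmb7 ran from -0.117 to 0.0242 (without TDG KO replicate 1), and was 0.01 without WT replicate 2. The Psmb8/Psmb5 ratio was 4.19 with 1 FPKM added. Windows of 50 kb held 67 CTCF regions, 45 of them in all lists. TDG KO-only regions numbered 0 with lists of equal length and 4 to 8 with a list left out. Apart from the window, the list length and the number of genes tested, the cause was not tested. Absolute depth is unknown, so the precision of low genes such as Psmb8 and Nlrc5 cannot be given.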

Other observations

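The CRE core and inverted CCAAT pair at the 20-base spacing occurred in promoters of 26 genes. Of these, 3 were B2m, H2-K1 and H2-D1, and 1 more, the nonclassical heavy chain gene H2-M3, was in the class I list. H2-M3 was at 1.08 and 0.789 FPKM in WT and 1.30 and 1.75 in TDG KO and was not called (log2 change 0.38 ± 0.14, limma adjusted p = 0.0524). Of the 26 genes 17 were tested, with 5 higher and 3 lower in TDG KO, against 24.4% higher and 29.5% lower over all tested genes. The largest changes were those of the clock gene Per1 (0.73 ± 0.091, limma adjusted p = 0.000906) and of Nfe2l1 (0.72 ± 0.071, limma adjusted p = 0.000362), a transcription factor known for inducing proteasome genes, at 63.8 and 57.0 FPKM in WT and 100.7 and 99.0 in TDG KO. Nfe2l1 and Per1 were named after their values were seen, and both lie on chromosome 11.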
